A study of Mus musculus with 2 samples.

Results

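The genes examined here were 33 genes of the amino acid response that the transcription factor ATF4 drives. They were listed by symbol, with earlier results of these data known. All 33 were found among the 27998 genes listed in the deposited tables. They were followed through 2 single-cell RNA libraries of C57BL/6 mouse lung fibroblasts grown from whole dissociated lungs to passage 3. The control library came from cells given vehicle, and the stimulated library from matched cells of the same lung, in identical medium and over the same 14 days. Per the labels' protocols, the agents used in the study, singly or in combination, were rosiglitazone at 10 µM, which activates PPARG, the compound SB4315442 at 1 µM, and rhBMP4, a bone morphogenetic protein, at 4 µM, with 10% FBS and, for a phenotype like that of lipid-storing lung fibroblasts, 1% ITS+3 supplement. The labels used here do not say which of these agents the stimulated library received. There was 1 library per condition, so no difference between the libraries could be tested, and every interval given below covers counting error only.

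When amino acids run short, or when unfolded protein collects in the endoplasmic reticulum, kinases phosphorylate the translation factor eIF2. Most translation then slows while that of ATF4 increases, and ATF4, paired with a C/EBP family partner, activates genes that make, import and charge amino acids onto tRNA. ATF4 is controlled largely through its translation, which these libraries do not measure. In fibroblasts the same genes supply glycine and proline, the main residues of collagen.

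ATF4 and its partners bind the C/EBP-ATF response element, searched here as TGATGNAAN on both strands (NTTNCATCA on the other) in RefSeq promoter windows of build GRCm38.p6. Each window ran from 250 bases before to 50 bases after an annotated start, and 26 of the 33 genes had one; 3 of them (Atf5, Psat1 and Slc7a1) had 2 starts and were counted once. The motif was present in 8 of the 26 genes (30.8%), against 4.50% of all 27025 genes with a window and 2.45% of the 6830 of them that were measured here. It was present in 5 of the 13 with a window whose level in the stimulated library was lower by 1.5-fold or more (38.5%): Asns, Chac1, Gars, Nupr1 and Trib3. The sites of 7 of the 8 genes are shown with 10 bases on each side, read along the strand on which the motif runs TGATGNAAN, with the motif in capitals, so that they can be compared directly.
Asns (chr6:7693214-7693242, minus strand): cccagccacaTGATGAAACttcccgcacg
Chac1 (chr2:119351038-119351066, minus strand): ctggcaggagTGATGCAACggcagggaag
Gars (chr6:55037960-55037988, minus strand): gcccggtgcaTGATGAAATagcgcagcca
Nupr1 (chr7:126625563-126625591, plus strand): aagccctgtcTGATGCAATctggcccttt
Trib3 (chr2:152344029-152344057, plus strand): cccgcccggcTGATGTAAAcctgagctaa
Iars (chr13:49682126-49682154, minus strand): cgtctggaggTGATGCAATactgacagtg
Pck2 (chr14:55540152-55540180, minus strand): tgtaagatacTGATGTAACtttgaaggct
The unspecified base inside the motif was C in 3 of these 7 sites, A in 2 and T in 2, and 6 different versions occurred. Counted along each gene with the annotated start as 0, the site began 194 bases before the start in Chac1, 111 before it in Nupr1, 31 in Gars and 23 in Asns, and 13 bases after the start in Trib3. The 250 bases before the start of the 4 lower genes with a site wholly in that stretch are given along the gene, 5′ to 3′, with the site in capitals, so that the sequence around it can be seen.
Asns (chr6:7693210-7693459, minus strand): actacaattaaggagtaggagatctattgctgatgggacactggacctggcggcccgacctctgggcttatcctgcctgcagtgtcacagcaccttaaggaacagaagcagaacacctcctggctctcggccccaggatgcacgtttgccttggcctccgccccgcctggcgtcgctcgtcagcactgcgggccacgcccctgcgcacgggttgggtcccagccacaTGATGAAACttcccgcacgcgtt
Chac1 (chr2:119350992-119351241, plus strand): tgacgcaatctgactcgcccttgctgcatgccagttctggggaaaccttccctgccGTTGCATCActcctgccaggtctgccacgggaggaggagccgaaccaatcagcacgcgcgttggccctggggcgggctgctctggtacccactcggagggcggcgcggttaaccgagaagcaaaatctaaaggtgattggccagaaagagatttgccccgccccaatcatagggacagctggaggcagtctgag
Gars (chr6:55037751-55038000, plus strand): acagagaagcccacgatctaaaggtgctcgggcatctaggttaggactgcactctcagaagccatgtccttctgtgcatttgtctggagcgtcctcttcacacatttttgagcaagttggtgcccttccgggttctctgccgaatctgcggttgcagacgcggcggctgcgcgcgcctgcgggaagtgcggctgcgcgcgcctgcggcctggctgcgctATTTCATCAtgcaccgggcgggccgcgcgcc
Nupr1 (chr7:126625471-126625720, minus strand): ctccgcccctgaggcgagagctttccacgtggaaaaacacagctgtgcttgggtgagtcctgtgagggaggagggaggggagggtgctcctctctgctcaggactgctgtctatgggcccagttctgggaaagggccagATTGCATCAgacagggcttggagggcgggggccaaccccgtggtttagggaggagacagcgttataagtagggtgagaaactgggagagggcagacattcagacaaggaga
A match is a description of these letters, and no binding was measured.

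The control library held 5016 barcodes and the stimulated library held 7698, of which 4703 and 7468 were kept as cells, with medians of 19634 and 15380 unique molecular identifiers (UMIs, each standing for 1 captured RNA molecule). The kept cells summed to 88573140 UMIs in the control library and 117193148 in the stimulated one, and 53 barcodes occurred in both. All 10 fibroblast markers were seen in both libraries, with sums of 8851 CPM (UMIs scaled to a library total of 1000000) in the control library and 4759 in the stimulated one, and 6 smooth muscle markers summed to 6643 and 2207 CPM. Both sums were lower in the stimulated library, as were the 33 genes, and their part in that was not tested. Of the 10 fibroblast markers, 6 were lower in the stimulated library and 4 higher, such as Pdgfra at 27.4 and 71.1 CPM. Of the 6 smooth muscle markers, 5 were lower and 1 higher. Summed macrophage markers stood at 750 CPM in the control library and 19.2 in the stimulated library, epithelial markers at 0.226 and 0.145, endothelial markers at 4.23 and 1.22, lymphocyte markers at 0.655 and 0.111, and mesothelial markers at 29.05 and 28.78. Single mesothelial markers differed in opposite directions: Msln stood at 1.35 and 13.1 CPM, and Krt19 at 5.04 and 0.503 CPM. The summed level of 12 cycling genes was 472 CPM in the control library and 718 in the stimulated one.

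All 32 amino acid response genes that were measured, here meaning a mean of at least 5 CPM over the libraries, had a lower level in the stimulated library. The sum over the genes was 4257 CPM in the control library and 2627 CPM in the stimulated library, a fold of 0.617 (95% counting interval 0.614 to 0.620), or 1.62-fold lower. The most abundant genes, Eif4ebp1 (825 and 581 CPM) and Nupr1 (730 and 201 CPM), weighed most in this sum and in the sums per cell below. At least 1.5-fold lower were 14 of the 32, against 11.9% of the 8755 other genes measured, and none of the 32 was at least 1.5-fold higher, against 7.78% of the other genes. The median log2 fold was -0.53 over the 32, from -1.91 to -0.04, and -0.06 over all 8787 genes measured, of which 5042 lay below a fold of 1. With edgeR's TMM factors in place of library totals, every log2 fold was 0.10 higher, so that Sesn2 and Aars moved above a fold of 1, 12 genes were at least 1.5-fold lower, and the split over the other genes became 9.31% lower and 10.3% higher. Because TMM shifts every gene alike, the median of the 32 relative to all genes, -0.47, stayed the same by construction. The remaining gene, Slc7a3, a cationic amino acid transporter, had 68 UMIs in the control library and 26 in the stimulated one, or 0.768 and 0.222 CPM.

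**Figure D1:**
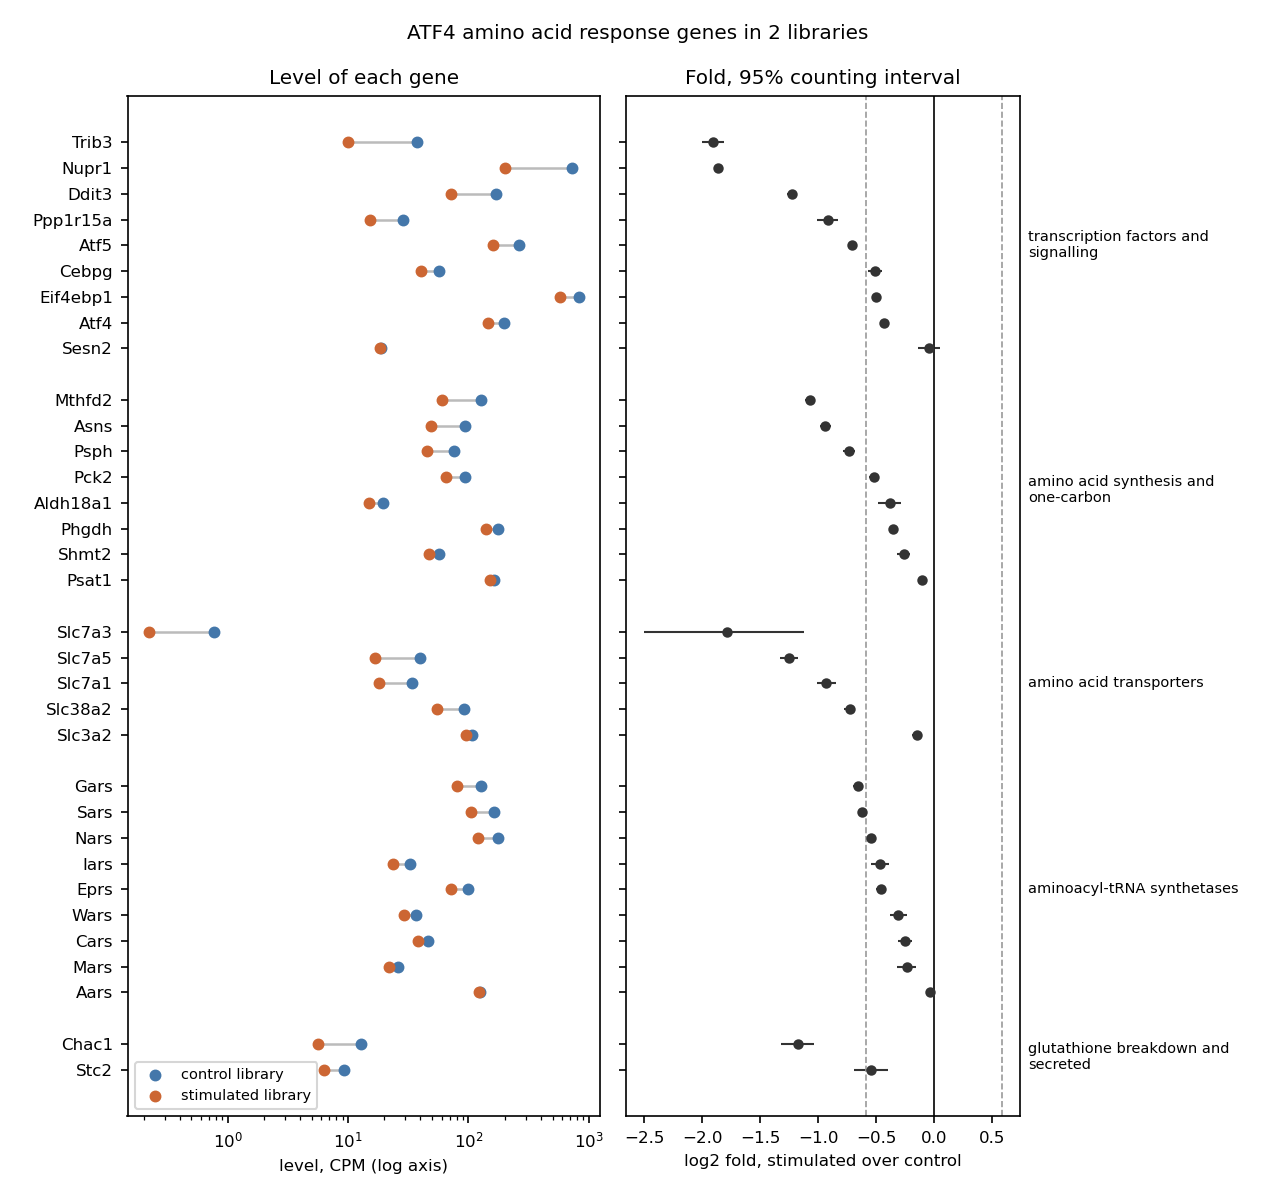
Level of each of the 33 genes in both libraries (left, CPM on a log axis) and the log2 fold of the stimulated over the control library with its 95% counting interval (right, dashed lines at 1.5-fold), grouped by role. Each point is 1 library or 1 fold; every gene lies left of 0, with Trib3 and Nupr1 farthest from it among the measured genes and Sesn2 and Aars, which pass 0 under TMM scaling, nearest to it.

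Of the 9 transcription factors and signalling proteins, 5 were at least 1.5-fold lower, with a median log2 fold of -0.71, and the group held the 2 genes with the widest differences among those measured. Trib3, a pseudokinase that restrains ATF4, stood at 37.6 CPM in the control library and 10.0 in the stimulated one, a fold of 0.266 (0.249 to 0.285). Nupr1, a small stress-induced nuclear protein, stood at 730 and 201 CPM, a fold of 0.275 (0.271 to 0.279). Ddit3, which encodes the stress factor CHOP, stood at 169 and 72.2 CPM, a fold of 0.427 (0.415 to 0.438). Each of these 3 genes was more than 2-fold lower, and the other 6 of the group differed less. Ppp1r15a, the phosphatase subunit that reverses eIF2 phosphorylation, gave 28.9 and 15.3 CPM (fold 0.529, 0.497 to 0.562), and Atf5, a factor related to ATF4, gave 261 and 160 CPM (0.611, 0.599 to 0.623). Atf4 mRNA itself differed less, at 196 CPM in the control library and 145 in the stimulated one, a fold of 0.739 (0.724 to 0.755). Its partner Cebpg gave 57.4 and 40.3 CPM (0.702), and the translation repressor Eif4ebp1 825 and 581 CPM (0.704). Sesn2, a leucine-sensing inhibitor of mTORC1, stood at 18.9 and 18.3 CPM, and the interval of its fold, 0.908 to 1.03, included 1.

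Among the 8 genes of amino acid synthesis and mitochondrial one-carbon metabolism, 3 were at least 1.5-fold lower and the median log2 fold was -0.45. Mthfd2, a mitochondrial folate enzyme, stood at 127 CPM in the control library and 60.6 in the stimulated one, a fold of 0.477 (0.463 to 0.491). Asns, which makes asparagine, stood at 93.2 and 48.6 CPM, a fold of 0.521 (0.504 to 0.539). The enzymes of the serine pathway did not share 1 size of difference. Psph, its last step, gave 75.6 and 45.4 CPM (0.601, 0.579 to 0.623), Phgdh, its first, 178 and 139 CPM (0.782, 0.765 to 0.799), and Psat1, between them, 163 and 151 CPM (0.927, 0.906 to 0.947). The other folds were 0.697 for Pck2, a mitochondrial enzyme of phosphoenolpyruvate synthesis, 0.766 for the proline enzyme Aldh18a1 and 0.834 for Shmt2, which passes carbon from serine to folate.

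Of the 4 measured amino acid transporters, 3 were at least 1.5-fold lower, with a median log2 fold of -0.83. Slc7a5, the light chain of the leucine transporter, stood at 39.6 CPM in the control library and 16.6 in the stimulated one, a fold of 0.420 (0.397 to 0.444). Slc3a2, the heavy chain with which it pairs, stood at 107 and 96.0 CPM, a fold of 0.901 (0.876 to 0.926). The light chain and the heavy chain thus differed between the libraries to unequal degrees, and Slc3a2 also pairs with other light chains. Slc7a1, for cationic amino acids, gave 34.3 and 18.01 CPM (0.525, 0.496 to 0.555), and Slc38a2, for small neutral ones, 91.2 and 55.0 CPM (0.603, 0.584 to 0.623).

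The 9 aminoacyl-tRNA synthetases, which charge tRNAs with their amino acids, had narrower differences, with a median log2 fold of -0.46 and 2 at least 1.5-fold lower. Gars, for glycine, stood at 126 CPM in the control library and 80.1 in the stimulated one, a fold of 0.634 (0.617 to 0.652). Sars, for serine, stood at 163 and 106 CPM, a fold of 0.650 (0.634 to 0.666). Nars, for asparagine, lay just short of the 1.5-fold limit at 0.687, followed by Iars at 0.722, Eprs at 0.728, Wars at 0.808, Cars at 0.839 and Mars at 0.849. Aars, for alanine, stood at 126 and 122 CPM, a fold of 0.974 (0.950 to 0.999). Of the remaining pair, Chac1, which breaks down glutathione, stood at 12.8 and 5.66 CPM (0.442, 0.401 to 0.487), and Stc2, a secreted glycoprotein, at 9.26 and 6.33 CPM (0.684, 0.618 to 0.756).

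Other genes of the same pathways were read from lists that stand beside the 33 genes. Of 24 other measured ATF4 targets, 14 were at least 1.5-fold lower and 1 higher, with a median log2 fold of -0.69, where 11.9% of other genes measured were lower and 7.78% higher. Many of these are also targets of other factors: the widest differences were in Vegfa, the blood vessel growth factor, at 73.7 and 13.1 CPM (0.177), and in Tsc22d3, also known as a glucocorticoid target, at 17.8 and 46.5 CPM (2.61). The 2 most abundant of them, Map1lc3b and Cebpb, had folds of 0.918 and 1.41. Of the 14 cytoplasmic synthetases and cofactors outside the 33 genes, 1 was at least 1.5-fold lower, Tars for threonine at 76.8 and 36.0 CPM (0.469), and the median log2 fold was -0.06. None of 7 measured mitochondrial synthetases passed 1.5-fold either way, and their median was 0.18.

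For neighbouring arms of the stress response and amino acid supply, the counts are read against the same 11.9% lower and 7.78% higher of the other genes. Of 17 targets of ATF6 and XBP1, which answer unfolded protein in the endoplasmic reticulum, none was at least 1.5-fold lower and 1 was higher, the co-chaperone gene Sdf2l1 at 74.4 and 112 CPM (1.51), with a median log2 fold of 0.14. Among 13 genes of eIF2 and its kinases, 1 was lower, Eif2s2 at 685 and 425 CPM (0.620), and the median was -0.11. Of 14 other serine, folate and proline genes, 3 were higher and 1 lower (median 0.10), the widest being Glul, glutamine synthetase, at 16.5 and 57.5 CPM (3.49). Of 7 other amino acid transporters, 2 were lower (median -0.16), Slc38a1 at 21.9 and 4.04 CPM (0.185) and Slc6a6 at 82.6 and 43.9 CPM (0.531). Of 13 regulators of mTORC1, the kinase complex that answers amino acid supply, 2 were higher and 1 lower (median 0.07), and of 11 mitochondrial chaperones and proteases 2 were lower, Hspa9 (0.595) and Lonp1 (0.541), with a median of 0.02.

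**Figure D2:**
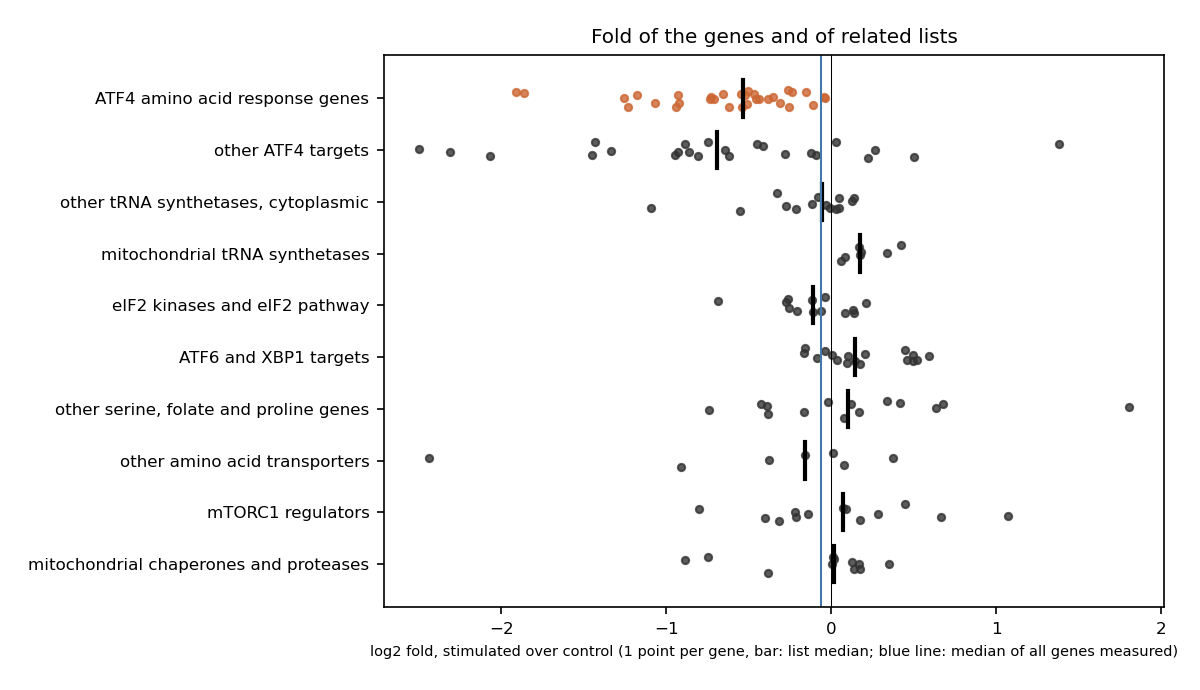
Log2 fold of the stimulated over the control library for each measured gene of the 33 and of 9 related lists (1 point per gene, black bar at the list's median, blue line at the median of all genes measured). The 32 measured genes lie between -1.91 and -0.04, and the other ATF4 targets have a median of -0.69, while the remaining medians lie between -0.16 and 0.18.

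The difference was spread over the cells of each library. Each cell with at least 5000 UMIs was thinned at random to 5000 UMIs, which left 4077 control and 6708 stimulated cells and set aside 626 and 760 shallower ones. The summed UMIs of the 33 genes then had a median of 20 per control cell, with 15 and 26 as quartiles, and a median of 12 per stimulated cell, with 9 and 16 as quartiles. The 95th percentile of the stimulated cells, 24, lay below the upper quartile of the control cells, and the 5th percentile of the control cells, 8, lay below the lower quartile of the stimulated ones. The libraries thus differed across the range and overlapped.

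**Figure D3:**
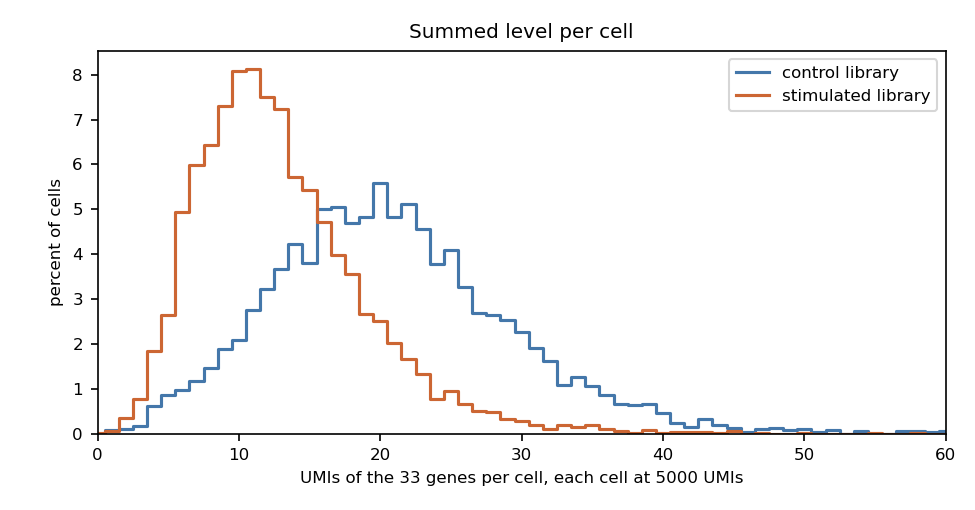
Percent of cells (vertical axis) at each sum of UMIs of the 33 genes (horizontal axis) after every cell was thinned to 5000 UMIs, for 4077 control and 6708 stimulated cells. The stimulated curve peaks lower, around its median of 12, and overlaps the control curve, whose median is 20.

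Shares of cells with at least 1 UMI were also lower in the stimulated library for Trib3, Ddit3, Nupr1 and Atf4. At 5000 UMIs per cell, Trib3 was seen in 15.6% of control and 4.68% of stimulated cells (39.5% and 11.3% without thinning). Ddit3 was seen in 48.2% and 24.3% (75.7% and 47.7% without thinning), and Nupr1 in 88.1% and 55.8% (96.2% and 82.5%). Atf4 was seen in 58.0% and 49.0%, and Psat1 in 48.9% (47.4% to 50.5%) and 49.7% (48.5% to 50.95%), which did not differ beyond counting error. No cell type in these cultures is known to lack these genes, so the part of free RNA in such shares was not measured.

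Across single cells of 1 library the genes varied together weakly. Pearson's r of log2(UMIs + 1) at 5000 UMIs, taken over 496 pairs of the 32 measured genes, had a median of 0.033 in the control library (from -0.08 to 0.197) and 0.030 in the stimulated library (from -0.02 to 0.215). Over all pairs of measured genes the medians were 0.002 and 0.001. Of the 496 pairs, 430 in the control library and 461 in the stimulated one were above 0. Above 0.1 were 5.65% and 2.42% of them, where 0.223% and 0.127% of all gene pairs were. The pairs of all genes were not matched to these for level, on which r at this depth depends. Their share above 0 was not counted. These cells share a library and a fixed depth, most genes have 0 or 1 UMI in a cell, and correlations of this size are descriptions only. Between the libraries, the values of the 496 pairs had r = 0.694; pairs share genes and so are not independent.

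The 7 pairs with the highest mean r over the libraries are given here, and roles were mixed among them. Ddit3 and Trib3, which the Ddit3 product CHOP is known to activate, had r = 0.126 in the control library and 0.215 in the stimulated one. Ddit3 and Nupr1 gave 0.159 and 0.148, and Atf4 and Ddit3 0.134 and 0.116. The translation repressor gene Eif4ebp1 and the serine pathway gene Psat1 gave 0.178 and 0.114. Among genes of amino acid synthesis and charging, Asns and Phgdh gave 0.197 and 0.129, Phgdh and Psph 0.167 and 0.101, and Phgdh and the glycine synthetase Gars 0.163 and 0.108. Against the sum of the other genes, Eif4ebp1 had the highest r in the control library (0.264) and Ddit3 in the stimulated library (0.235). Slc38a2 stood at the other end, with r = -0.04 and 0.006 against the rest.

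**Figure D4:**
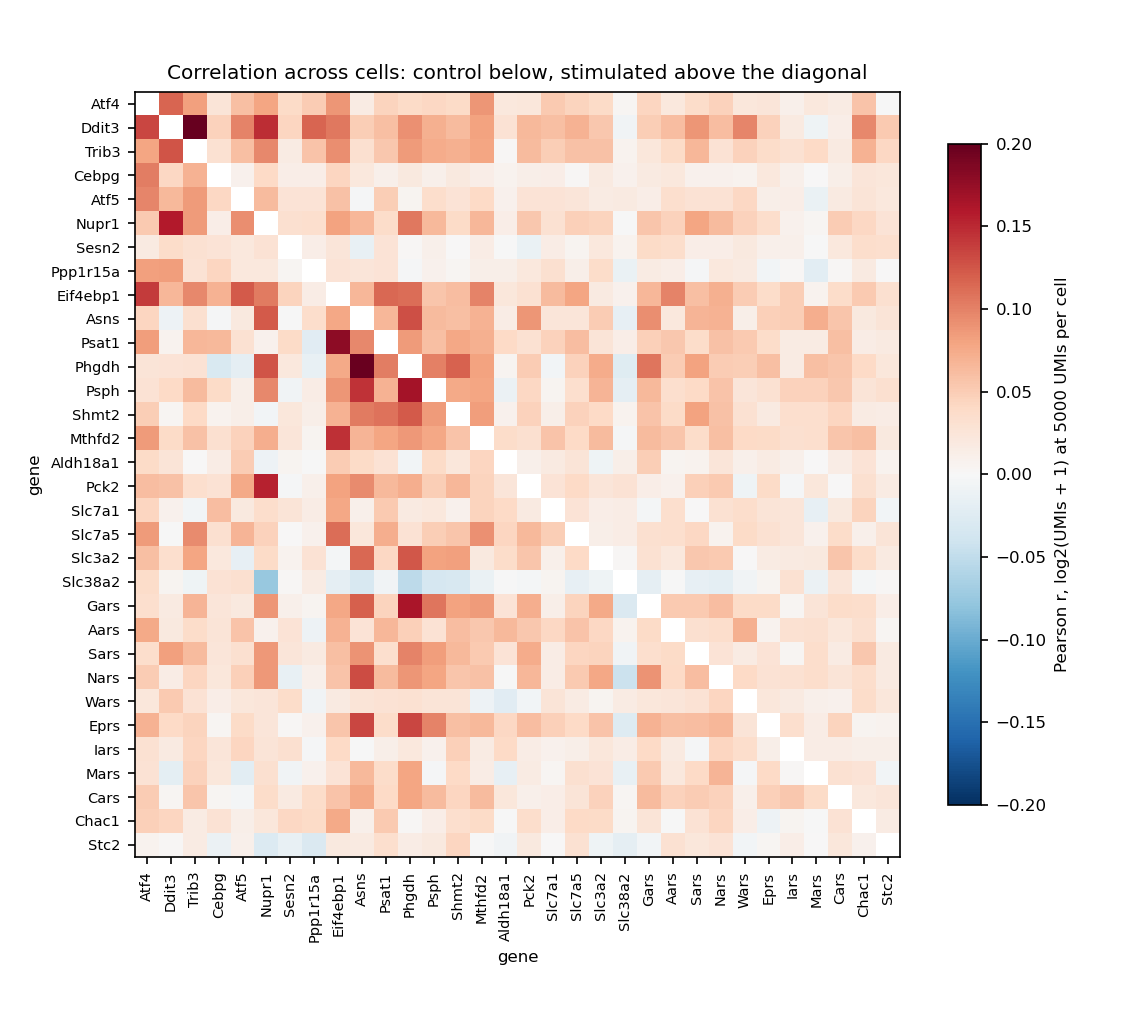
Pearson's r across cells for each pair of the 32 measured genes, with the control library (4077 cells) below and the stimulated library (6708 cells) above the diagonal, on log2(UMIs + 1) at 5000 UMIs per cell. Ddit3 with Trib3 (0.126 and 0.215) and Asns with Phgdh (0.197 and 0.129) are among the darkest squares, and much of the Slc38a2 row and column lies near or below 0.

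Outside the list, the 12 genes with the highest mean r with the summed level, of 6138 ranked, were Serpinh1, Hspa5, Tuba1b, Hsp90b1, Ran, Eif2s2, Mif, Tuba1a, Acta2, Eif5a, Pdia6 and Hsp90aa1. Serpinh1, the collagen chaperone, gave 0.286 in the control library and 0.219 in the stimulated one. Hspa5, the main chaperone of the endoplasmic reticulum, gave 0.136 and 0.289, while its level was 183 CPM in the control library and 202 in the stimulated one. The summed ATF6 and XBP1 targets gave 0.114 and 0.371, and the cell's total UMIs before thinning 0.192 and 0.113. The lowest of the ranked genes was Fth1, ferritin heavy chain, at -0.37 and -0.28. Ribosomal protein UMIs gave 0.030 in the control library and -0.32 in the stimulated one. UMIs of cycling genes gave 0.072 and 0.147, and mitochondrial UMIs -0.045 and -0.116. Depth, chaperone content and cycling UMIs thus moved with the summed level in both libraries. Mitochondrial UMIs moved weakly against it in both, and ribosomal protein content in the stimulated library. The part of these measures in the summed level was not tested.

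Levels in cells with and without a Trib3 UMI show the co-variation as amounts, with intervals that cover counting error only. In the control library, 634 cells had a Trib3 UMI and 3443 had none at 5000 UMIs, and 22 of the 31 other measured genes had a fold with an interval above 1, against 7.24% of genes outside the list. The median fold was 1.21, against 1.01 over the genes outside the list. Intervals are narrower for more abundant genes, and the genes outside the list were not matched for level. Ddit3 stood at 243 CPM in cells with a Trib3 UMI and 157 CPM in cells without (1.55, 1.43 to 1.68). In the stimulated library, 314 cells had a Trib3 UMI and 6394 had none. Of the 31 genes, 27 had an interval above 1, against 9.88% of genes outside the list. The median fold was 1.48, against 1.03 over the genes outside the list. Ddit3 there stood at 247 and 65.0 CPM (3.79, 3.39 to 4.23), and Chac1 at 15.9 and 4.79 CPM (3.33). The stimulated cells with Trib3 had a Ddit3 level close to that of the control cells with Trib3, and the cells without it differed more between libraries. Split by Chac1 instead, 13 of 31 genes in the control library had an interval above 1, against 3.86% of genes outside the list, and 20 of 31 in the stimulated one, against 4.93%.

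Cells were grouped within each library without using the 33 genes, and the clusters below are named by their leading genes. Among the 9 control clusters of at least 50 cells and a median of at least 5000 UMIs, the summed level ran from 2050 to 5221 CPM. The lowest was a cluster of 153 cells led by Fcgr1, Ms4a6c and Ly86, in which all 12 macrophage markers were seen, and it was the lowest for 19 of the 32 genes. The summed macrophage markers were higher in the control library, and their part in the difference between the libraries was not tested. With all cells holding at least 3 macrophage or mesothelial markers left out, the summed fold between the libraries was 0.613 and 14 genes were at least 1.5-fold lower, and with cells holding at least 5 cycling UMIs left out it was 0.590 with 15 genes lower. The 7 stimulated clusters ran from 2034 CPM, in 1360 cells led by Il33, Dio2 and Il1rl1, to 4238 CPM, in 316 cells led by Car6, Chchd10 and Slc7a11. The lowest stimulated cluster was the lowest for 21 of the 32 genes. For neither lowest cluster was the same count made over other genes.

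Those 316 cells were 4.23% of the stimulated library. They had the highest level among the 7 clusters for 21 of the 32 genes, a count not made over other genes. Ddit3 stood at 371 CPM in them and 60.2 CPM in the other stimulated cells (6.17, 5.85 to 6.51), and Trib3 at 55.6 and 8.18 CPM (6.81, 5.90 to 7.83). Ppp1r15a was 2.82-fold, Chac1 2.75-fold and Wars 2.53-fold higher in them, Atf4 1.56-fold and Asns 1.58-fold. The folds of Slc38a2 (0.907, 0.791 to 1.04) and Mars (0.865, 0.690 to 1.07) lay below 1 with intervals that included it. The cluster gave 19.9% of all Ddit3 and 21.5% of all Trib3 UMIs of its library from 3.87% of the UMIs. Among its 10 leading genes were Hspa5, Sdf2l1 and Pdia4, listed here as ATF6 and XBP1 targets. Herpud1 and Slc7a11, the cystine transporter, were also among them and are listed here as ATF4 targets. Without these cells the summed fold between the libraries was 0.602, and 14 genes were at least 1.5-fold lower.

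Several synthesis and synthetase genes were high in the clusters led by Hspa5 and the protease gene Ctsl, present in both libraries (435 control and 466 stimulated cells). Asns stood at 218 CPM in the control cluster and 76.4 CPM in the other control cells (2.85, 2.71 to 2.99), and at 130 and 40.5 CPM in the stimulated library (3.20, 3.01 to 3.402). Phgdh was 2.48-fold and 2.80-fold higher, Psph 2.18-fold and 1.86-fold, Mars 2.04-fold and 2.46-fold, and Gars 1.88-fold and 2.14-fold. Trib3 was at 1.298 and 1.26 of the other cells, Nupr1 at 1.58 and 1.34 and Pck2 at 1.39 and 1.40. Other synthesis and synthetase genes were not high: Psat1 was at 0.796 and 1.05, Mthfd2 at 0.972 and 1.09, and Wars at 1.05 and 0.94. Some genes of other roles were lower in these cells than in the others: Atf4 was at 0.772 and 0.893 of the other cells, and Slc38a2 at 0.780 and 0.783. Ddit3 was at 1.24 (1.18 to 1.296) in the control library and 0.892 (0.823 to 0.964) in the stimulated one. In the stimulated library, Ddit3 and Trib3 were thus highest in the cluster led by Car6, and Asns, Phgdh and Psph in the cluster led by Hspa5 and Ctsl. In the control library, Asns, Phgdh and Psph were highest in the cluster with Hspa5 and Ctsl. Ddit3 was highest in control cluster 5, at 223 CPM against 204 in the Hspa5 and Ctsl cluster. Trib3 was nearly level between these 2 clusters. The Hspa5 and Ctsl cluster gave 14.9% of Trib3 UMIs from 11.9% of all UMIs, and control cluster 5 gave 7.60% from 6.18%.

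**Figure D5:**
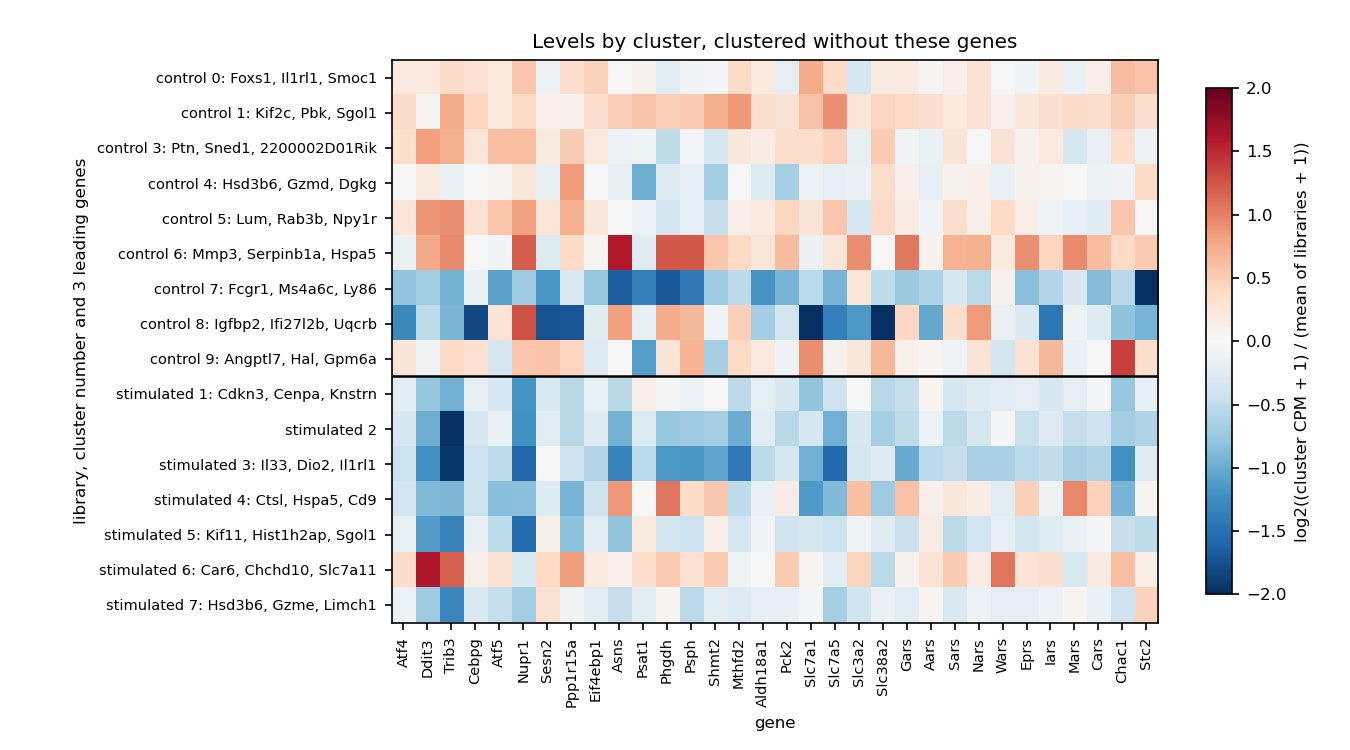
Level of each of the 32 measured genes in the 16 clusters of at least 50 cells and a median of at least 5000 UMIs, as log2 of the cluster's CPM + 1 over the mean of both libraries + 1 (colour scale from -2 to 2), with leading genes beside 15 of the cluster numbers. Ddit3 and Trib3 are high in stimulated cluster 6 (371 and 55.6 CPM), Asns and Phgdh in control cluster 6 and stimulated cluster 4, and control cluster 7 is low for most genes.

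Pairs of clusters, 1 per library, that shared leading genes allowed the libraries to be compared within like cells, with pairs chosen after the data were seen. In the pair of cycling clusters (883 control and 1766 stimulated cells) the sum was 4479 and 2618 CPM, and 21 of the 32 genes were at least 1.5-fold lower, against 11.6% of the other genes measured in it. In the Hspa5 and Ctsl pair it was 5221 and 3249 CPM, with 12 genes lower against 15.7%. In the pair led by the steroid dehydrogenase gene Hsd3b6 and granzyme genes the difference was smaller, at 3406 and 2826 CPM (0.830, 0.814 to 0.846), with 4 genes lower against 18.8%, and 1 higher, Psat1 (1.71). In that pair 22 of the 32 genes lay below a fold of 1, and their median log2 fold, -0.24, was near the -0.18 of all genes. Trib3, Ddit3, Nupr1 and Ppp1r15a were at least 1.5-fold lower in each of these 3 pairs, Trib3 with folds of 0.217, 0.261 and 0.417.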

How the data were processed

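Single-cell 3′ libraries (10x Genomics Single Cell 3′ v2 kit, per the labels' protocols) were deposited by the authors as raw UMI counts per gene and barcode, 1 table per library, unnormalized per the file headers. The file headers name Cell Ranger 3.0.2. Cell Ranger 1.3.1 and Seurat 3.0.0 stand in the submitters' processing notes. Which genome build and annotation lie behind the counts is not given in the sources used here. Cells with at least 500 genes and at most 20% mitochondrial UMIs were kept. No doublet caller was run and doublets were not removed. UMIs were summed per library and scaled to CPM; a gene was called measured when its mean over the libraries reached 5 CPM. Percentages of other genes past 1.5-fold leave out the 33. Folds have exact conditional Poisson 95% intervals for counting error only. Shares, sums per cell and correlations used cells thinned to 5000 UMIs (seed 1). Clusters came from scanpy 1.11.5 (2000 variable genes without the 33, 30 components, 15 neighbours, Leiden resolution 0.5), and leading genes are those with the highest fold over the other cells at 25 CPM or more. Cluster names from markers needed at least 3 markers seen in the cluster and 2 among its 10 leading genes. Python 3.11.15, scipy 1.17.1, R 4.3.3 with edgeR 4.0.16 and minimap2 2.31 were used; scripts were tested on simulated data.

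The 33 genes, their roles and all other lists were chosen with earlier results of these data known. Named are all 33 genes; in each related list the genes of largest fold either way, the most abundant ones or those past 1.5-fold; the 12 best correlated other genes with at least 10 CPM in each library; and the leading genes of clusters. Other genes named were chosen after their values were seen. In 90-base windows of the last 400 bases of each gene's transcripts, allowing 2 mismatches, 1 of 143 windows of Pck2 matched another listed gene, Gm4419, and none of the other 32 genes had such a window. The 7 genes with no RefSeq promoter entry were Slc7a5, Slc7a3, Nars, Wars, Mars, Cars and Eif4ebp1. Alternatives covered scaling, filters on genes and cells, depth and cell groups. The promoter sites of 1 gene and a pair of clusters are not reported here.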

Additional observations from a re-analysis of the deposited data

How the results depend on the processing

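No paired analysis was possible because each condition has 1 library. The count of genes at least 1.5-fold lower, 14, was between 12 and 15 under 9 alternatives in scaling, filters, depth and cells left out, and none was at least 1.5-fold higher under any of them. The summed fold, 0.617, moved by more than its counting interval to 0.663 with TMM factors, 0.635 with library totals that leave out mitochondrial and ribosomal protein genes, 0.623 with cells thinned to 5000 UMIs, 0.613 without 993 control and 120 stimulated cells holding at least 3 macrophage or mesothelial markers, and 0.590 without 1396 and 3382 cells holding at least 5 cycling UMIs. Added after the data were seen, it was 0.602 without the 316 cells led by Car6, and 0.585, 0.622 and 0.830 in the cluster pairs led by cycling genes, Hspa5 and Hsd3b6. In the last pair the median log2 fold was -0.24 (-0.07 relative to all genes), with 22 of 32 genes below a fold of 1, 4 of them at least 1.5-fold lower, and 1 gene at least 1.5-fold higher. Slc7a1, at 0.525 between the whole libraries, was there at 1.07; the cause was not tested. The median correlation, 0.033 in the control library and 0.030 in the stimulated one, was 0.048 and 0.047 at 10000 UMIs, 0.020 and 0.020 at 3000 UMIs, and 0.040 and 0.035 among genes of at least 20 CPM. Depth limits the correlations, since most genes have 0 or 1 UMI in a thinned cell. With 1 library per condition, differences between cultures and differences caused by the stimulation cannot be told apart.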
